A study of Mus musculus with 4 samples.

Results

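The genes described here mark blood, vessels and macrophages. They are 36 of the 27487 named genes on the array and fall into 8 red cell genes, 13 endothelial genes, 3 pericyte genes and 12 genes of macrophages and other myeloid cells. They were chosen by name as textbook markers of these cell types, and each gene was read from its brightest probe. RNA was compared between organs of Corti, the sensory epithelium of the cochlea, from Sox2-Tbx2LOF and control embryos on 4 dual-colour Agilent arrays, so that 4 pools per genotype were measured. The question behind this gene set was whether the blood or vessel content of the dissected tissue differed between the genotypes.

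All embryos were NMRI mice at stage E18.5 (E, embryonic day) whose dams had received 4 mg of tamoxifen by mouth at E16.5, controls included. By the methods of the study, dams treated at this stage were also given progesterone. Sox2-Tbx2LOF embryos had the genotype Sox2(creERT2);Tbx2(fl/fl). In these mice the tamoxifen-dependent recombinase CreERT2 is made from the Sox2 locus, so that floxed Tbx2 is cut in cells that express Sox2, while blood, vessel and macrophage cells are targeted only as far as they express Sox2. Controls are labelled Tbx2(fl/n.d.), with the other Tbx2 allele left undetermined, and lacked the recombinase. The methods of the study describe crosses in which the embryos of both groups also carried a fluorescent R26 mTmG reporter allele. Basal parts of the cochlea were used after the spiral ligament and the spiral ganglia had been taken off, and each pool held tissue of several embryos of the same sex. Arrays 1 and 2 held female pools and arrays 3 and 4 held male pools. The Sox2-Tbx2LOF pool was labelled with Cy3 on arrays 1 and 3 and with Cy5 on arrays 2 and 4, and the control pool of the same array carried the other dye.

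Red blood cells of the fetus are packed with alpha and beta globins, which bind oxygen through haem, and their precursors are governed by the transcription factors GATA1 and KLF1. Endothelial cells line the vessels and carry receptors for vascular endothelial growth factor and angiopoietin, and pericytes wrap the capillaries under the control of platelet-derived growth factor. Macrophages depend on colony-stimulating factor signalling through CSF1R, settle in the cochlea before birth and make complement component C1q. The sensory epithelium itself holds no vessels, which run in the connective tissue beneath it.

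The sequence of the Hba-a1 probe is shown because it decides what the globin signal can mean. This probe has 60 bases, lies at chr11:32183955-32184014 on the plus strand of mm9 and starts at base 161 of the transcript. Its entry in the array files lists the transcripts of both alpha globin genes, Hba-a1 and Hba-a2, so that its signal is that of adult alpha globin as a whole. The Ahsp probe, of the chaperone of alpha globin, starts at base 177 of its transcript and has no genome position in the array files.
Hba-a1 probe: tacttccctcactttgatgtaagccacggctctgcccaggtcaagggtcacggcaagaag
Ahsp probe: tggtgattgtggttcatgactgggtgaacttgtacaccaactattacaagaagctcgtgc

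For the red cell genes, whose ratios lay on the same side of 0 in the results that follow, the promoters in RefSeq's GRCm38.p6 annotation were read for the letters bound by GATA factors and by KLF1. The 250 bases before the transcription start are printed for Hba-a1 (chr11:32283422-32283671, plus strand), Alas2 (chrX:150547167-150547416, plus strand) and Klf1 (chr8:84901732-84901981, plus strand). Capitals mark matches on either strand. The GATA motif was searched as AGATAA and, as a second form, as TGATAA. The core of the KLF1 motif was searched as CACCC. No match of the one motif overlapped a match of the other.
Hba-a1 promoter: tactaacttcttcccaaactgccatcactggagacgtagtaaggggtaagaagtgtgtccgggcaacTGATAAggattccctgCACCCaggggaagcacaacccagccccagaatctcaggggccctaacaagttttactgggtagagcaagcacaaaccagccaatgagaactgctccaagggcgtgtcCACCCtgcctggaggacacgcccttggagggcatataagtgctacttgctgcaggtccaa
Alas2 promoter: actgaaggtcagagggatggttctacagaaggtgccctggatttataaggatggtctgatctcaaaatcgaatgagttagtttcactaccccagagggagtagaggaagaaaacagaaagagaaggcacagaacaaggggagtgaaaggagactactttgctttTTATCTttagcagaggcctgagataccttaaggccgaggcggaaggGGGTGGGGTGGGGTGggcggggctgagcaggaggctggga
Klf1 promoter: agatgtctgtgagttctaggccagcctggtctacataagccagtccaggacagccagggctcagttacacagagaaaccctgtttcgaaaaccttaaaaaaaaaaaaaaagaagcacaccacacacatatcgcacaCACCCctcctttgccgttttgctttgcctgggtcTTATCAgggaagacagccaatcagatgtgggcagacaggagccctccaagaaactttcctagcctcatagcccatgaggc
Each of these windows held 1 GATA motif, which began 183 bases before the start in Hba-a1, 86 in Alas2 and 80 in Klf1. The CACCC letters occurred 2 times in Hba-a1, 3 times in a row in Alas2 and 1 time in Klf1. Promoters were found for 24 of the 36 genes. Of the 5 red cell genes with an entry, which also include Gata1 and Epb42, 4 held a GATA motif and 4 held CACCC, against 18.8% and 54.5% of the 27025 genes with a promoter in that table. A GATA motif was found in 2 of 8 endothelial, 1 of 2 pericyte and 1 of 9 myeloid genes with an entry, and CACCC in 7 of 8, 0 of 2 and 6 of 9, so that the share with CACCC was no higher in the red cell than in the endothelial genes. Slc4a1, Ahsp and Hbb-bh1 had no entry. These matches describe letters only.

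Nearly all of these genes were detected. In the organ of Corti pools, 34 of the 36 cleared the background on at least 3 arrays in 1 of the genotypes and were tested, and 33 of them were above background in all 8 pools. Erg, an endothelial transcription factor of the ETS family, was above background on 2 arrays in the Sox2-Tbx2LOF channel and on 3 in the control channel. The red cell genes Epb4.2, now called Epb42 and coding for a protein of the red cell membrane skeleton, and Gata1 were not tested. Epb4.2 was not well above background on any array in either channel. Gata1 was not well above background in any Sox2-Tbx2LOF pool but was so in 2 control pools. Its mean log2 level was 6.31 in the Sox2-Tbx2LOF and 6.49 in the control pools, where array 4 had 6.80. No direction is read from levels this near the background.

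Over the whole array, 28104 of 39429 probes were tested, and 70 of them were called, 34 higher and 36 lower in Sox2-Tbx2LOF, where a call needed both an adjusted p under 0.05 and at least 1.5-fold. Here and in what follows, p-values come from limma on within-array log2 ratios (Sox2-Tbx2LOF over control) with a dye term, adjusted by Benjamini-Hochberg over all tested probes, and n = 4 arrays. They rest on the spread between arrays that is left after the dye term, moderated over all tested probes. The SD printed with a mean still includes the dye effect. The share of probe spots well above background was 70.4% to 75.2% for Sox2-Tbx2LOF and 70.6% to 74.3% for controls. Of 16 markers of hair cells and supporting cells, 15 were above background in all 8 pools, and the exception was Slc26a5, a protein of mature outer hair cells. Tbx2 itself, whose probe starts at base 3502 of its transcript and was not placed inside or outside the deleted part here, gave -0.15 ± 0.14 as its mean log2 ratio (SD, n = 4; adjusted p = 0.313), below 0 on all 4 arrays. Sox2, which carries the recombinase, had 0.23 ± 0.088 (SD, n = 4; adjusted p = 0.0872).

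Of the 34 tested genes of blood, vessels and macrophages, 0 were called changed in limma, against 0.285% of all 19985 tested genes. None had an adjusted p under 0.05, which 1.16% of all genes had, and 1 gene, Slc4a1, had an unadjusted p under 0.05, against 7.89% of all genes. Slc4a1 was on the lower side, where 4.01% of all genes had such a p, and none was on the higher side, where 3.87% had. An unpaired limma fit on the channel levels also called 0 of them. The mean log2 ratios ran from -0.27 to 0.12, with a median of -0.011 beside 0.00213 over all tested genes. All 34 had a 95% interval within 1.5-fold in either direction, as had 99.3% of all genes. These intervals are of ratios after background correction with an offset of 50, which pulls dim ratios towards 0. For dim genes such as Lyz2, Erg, Ptprc and Hbb-bh1 they therefore do not bound the change in RNA. The levels of the 4 Sox2-Tbx2LOF pools and the 4 control pools overlapped for all 34 genes, whereas among all tested genes they did not overlap for 1.48% on the lower side and 1.35% on the higher side. In whole tissue, fewer cells of a type and less RNA per cell cannot be told apart, so that the ratios give the sum of both.

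**Figure D1:**
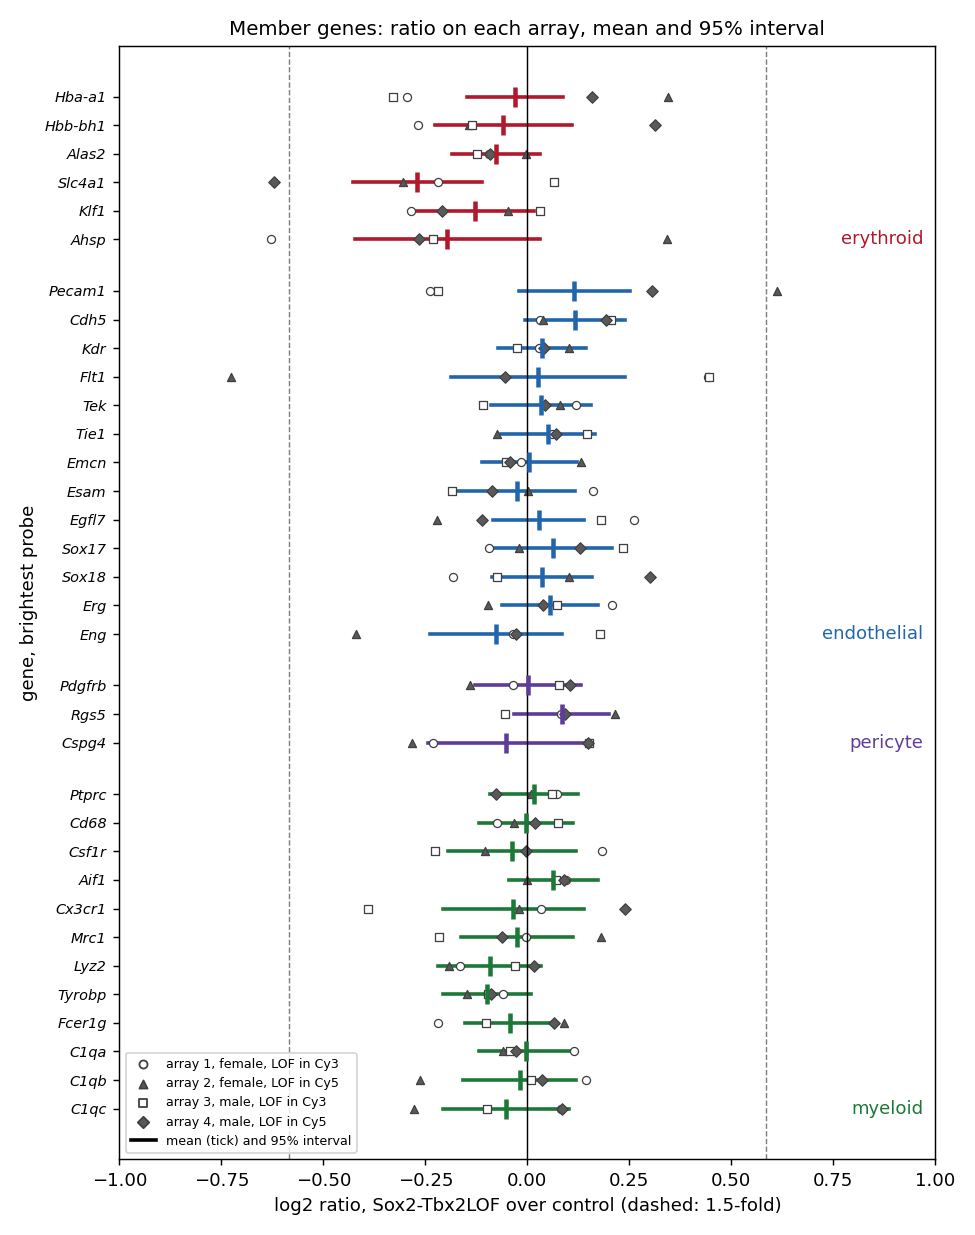
Log2 ratio of Sox2-Tbx2LOF over control (x axis) of the 34 tested genes (y axis, by cell type) on each of the 4 arrays (symbols; open, Sox2-Tbx2LOF in Cy3; filled, in Cy5), with the mean (tick) and its 95% interval from limma (bar). All bars lie within the dashed lines at 1.5-fold, and the bar of Slc4a1 lies wholly below 0.

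The red cell genes were the group with the lowest ratios. All 6 tested had a mean log2 ratio below 0, beside 48.2% of all tested genes, with a median of -0.10 and a range from -0.27 to -0.030. None of the 6 was called, and genes of 1 cell type share their source within a pool, so that the 6 are not independent of each other. Their median per array was -0.28, -0.026, -0.13 and -0.15 on arrays 1 to 4, with all 6 genes below 0 on array 1 and 4 of 6 on each of the others. The mean of their log2 levels was 10.16, 10.39, 10.16 and 10.47 in the Sox2-Tbx2LOF pools of arrays 1 to 4 and 10.46, 10.36, 10.28 and 10.59 in the control pools. The Sox2-Tbx2LOF pool was thus lower on arrays 1, 3 and 4 and slightly higher on array 2, and the 2 ranges overlapped. The control pool of array 4 held the highest of the 8 levels for 4 of these 6 genes, namely Alas2, Slc4a1, Klf1 and Ahsp.

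Slc4a1, which codes for band 3, the anion exchanger of the red cell membrane, had the lowest ratio of all 34 genes. Its probe lies at chr11:102210256-102210315 on the minus strand of mm9 and starts at base 4368 of the transcript. Its log2 levels were 7.81, 7.86, 7.69 and 8.07 in the Sox2-Tbx2LOF pools of arrays 1 to 4 and 8.03, 8.17, 7.63 and 8.69 in the control pools. The control pools spread more widely than the Sox2-Tbx2LOF pools, the male control pool of array 4 stood highest and that of array 3 stood lowest of all 8. The log2 ratios were -0.22, -0.30, 0.065 and -0.62, below 0 on 3 of 4 arrays, with a mean of -0.27 ± 0.28 (SD, n = 4; SE 0.069 in limma) and a 95% interval of -0.43 to -0.11. The unadjusted p was 0.00405 and the adjusted p 0.177 in limma, so that the mean change of -17.1% did not pass. With array 2 left out, the dye-adjusted mean, which gives both dye orientations equal weight, was -0.35 (adjusted p = 0.0183 in limma). It passed the p threshold but stayed under the 1.5-fold minimum. Without array 4, in turn, the dye-adjusted mean was -0.19 (adjusted p = 0.393 in limma).

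Ahsp, the chaperone that keeps free alpha globin soluble, came next. Its log2 levels were 10.09, 10.86, 10.23 and 10.68 in the Sox2-Tbx2LOF pools and 10.71, 10.52, 10.46 and 10.94 in the control pools. The pools of the genotypes overlapped across most of their range. The log2 ratios were -0.63, 0.34, -0.23 and -0.27, with a mean of -0.20 ± 0.40 (SD, n = 4; adjusted p = 0.856 in limma). Its dye term of 0.23 was larger in size than this mean. Array 2 alone had a ratio above 0. Without it the dye-adjusted mean was -0.35 (adjusted p = 0.0315 in limma), again under the minimum fold. Without array 4 the dye-adjusted mean was -0.044 (adjusted p = 1.000). For both genes the value thus depended on which array was counted.

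Klf1, the transcription factor that switches on adult globin genes, had log2 ratios of -0.29, -0.048, 0.031 and -0.21 on arrays 1 to 4. The ratio was below 0 on 3 of 4 arrays, with a mean of -0.13 ± 0.14 (SD, n = 4; adjusted p = 0.833 in limma). Alas2, the red cell enzyme that starts haem synthesis, was the only tested red cell gene below 0 on all 4 arrays. Its ratios were -0.094, -0.0035, -0.12 and -0.091, with a mean of -0.077 ± 0.051 (SD, n = 4), which corresponds to a change of -5.23% and did not pass in limma (adjusted p = 1.000). Among all tested genes, 4.77% were below 0 on all 4 arrays, as were 2 of these 34, Alas2 and Tyrobp.

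For both globins of the set, the dye term was larger in size than the genotype term. Hba-a1, the alpha globin read from the probe printed above, had log2 levels of 16.77, 17.10, 16.69 and 17.05 in the Sox2-Tbx2LOF pools and 17.07, 16.76, 17.02 and 16.90 in the control pools. On every array the pool labelled with Cy5 was the brighter. The ratios were -0.29, 0.34, -0.33 and 0.16, with a mean of -0.030 ± 0.33 (SD, n = 4; 95% interval -0.15 to 0.088; adjusted p = 1.000 in limma) beside a dye term of 0.28. Hbb-bh1, an embryonic beta-like globin that later red cells no longer make, was dim, with log2 levels from 7.27 to 7.67 and 7.35 to 7.69 in the respective pools. Its ratio was below 0 on arrays 1 to 3 and above 0 on array 4, with a mean of -0.059 ± 0.26 (SD, n = 4) beside a dye term of 0.14. Outside the set, the other tested globin genes, named after their values were seen, had mean log2 ratios of -0.020 for Hba-a2, -0.13 for Hbb-b1, -0.054 for Hbb-b2, -0.074 for Hbb-bt and -0.063 for Hbb-y. None of these was called, the lowest unadjusted p being 0.0530 for Hbb-b1, and globin probes can share RNA between near-identical genes.

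**Figure D2:**
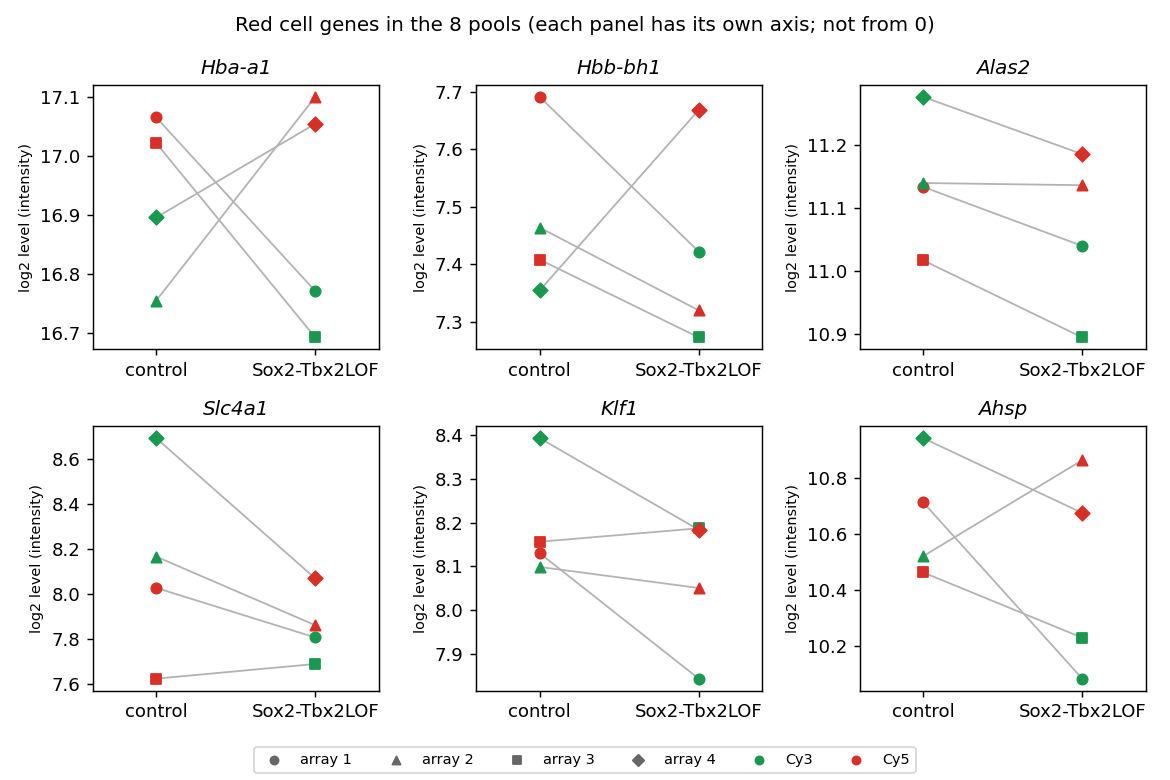
Log2 level (normalized intensity, y axis, 1 scale per gene, not starting at 0) of the 6 tested red cell genes in the 4 control pools and the 4 Sox2-Tbx2LOF pools (x axis). Symbols are arrays, grey lines join the pools of 1 array, and colours are dyes. For Hba-a1 the lines cross by dye, and for Slc4a1 the control pool of array 4 stands above the other 7 pools.

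Endothelial genes lay close to 0. Of the 13, all of which were tested, 11 had a mean log2 ratio above 0 and 2 below, beside 51.8% of all genes above 0. The median was 0.036 and the range -0.076 to 0.12. The median per array was 0.032, 0.0029, 0.072 and 0.041, so that it was above 0 on each array by at most 0.072. The mean of their log2 levels lay between 10.76 and 10.999 in the Sox2-Tbx2LOF pools and between 10.77 and 10.94 in the control pools, and these ranges overlapped.

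Among the junction proteins, Cdh5, which codes for VE-cadherin, the cadherin of endothelial junctions, was the only gene of the set with a ratio above 0 on all 4 arrays, which 4.56% of all tested genes had. Its log2 levels were 10.98, 10.57, 10.57 and 10.73 in the Sox2-Tbx2LOF pools and 10.95, 10.53, 10.36 and 10.54 in the control pools, with female pools of array 1 the brightest of either genotype. The ratios were 0.032, 0.038, 0.21 and 0.19, with a mean of 0.12 ± 0.10 (SD, n = 4; adjusted p = 0.761 in limma). Pecam1, an adhesion molecule of the same junctions, had nearly the same mean but a much wider spread. Its ratios were -0.24, 0.61, -0.22 and 0.31, with a mean of 0.12 ± 0.42 (SD, n = 4; adjusted p = 0.869 in limma). They were above 0 where Sox2-Tbx2LOF was in Cy5 and below 0 where it was in Cy3, with a dye term of 0.34. Esam, another adhesion molecule at endothelial junctions, had -0.026 ± 0.15 (SD, n = 4).

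The receptors gave small means throughout. Kdr, the main receptor for vascular endothelial growth factor, had ratios of 0.027, 0.10, -0.026 and 0.041 and a mean of 0.036 ± 0.053 (SD, n = 4; 95% interval -0.071 to 0.14), and its second probe gave a mean of -0.0031. Flt1, a receptor of the same family that binds the factor with high affinity, had the widest spread between arrays of the whole set. Its log2 levels were 12.40, 11.61, 12.06 and 11.98 in the Sox2-Tbx2LOF pools and 11.96, 12.33, 11.61 and 12.03 in the control pools, with ratios of 0.44, -0.73, 0.45 and -0.055. The Cy3 pool was the brighter on every array, the dye term was -0.42, and the mean ratio was 0.027 ± 0.55 (SD, n = 4; 95% interval -0.19 to 0.24). Tek and Tie1, the receptors of the angiopoietin system, had means of 0.034 ± 0.10 and 0.050 ± 0.092 (SD, n = 4 each). Eng, a co-receptor for transforming growth factor beta ligands, had the lowest endothelial mean, -0.076 ± 0.25 (SD, n = 4; adjusted p = 1.000 in limma), with a ratio of -0.42 on array 2 and 0.18 on array 3.

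The transcription factors Sox17, Sox18 and Erg had means of 0.062, 0.037 and 0.055. The second probe of Sox17 gave 0.13. Emcn, a sialomucin of capillaries and veins, had 0.0046 with a 95% interval of -0.11 to 0.12. Egfl7, a matrix protein that endothelial cells secrete, had 0.028 with a dye term of -0.19. For each of these 5 genes the mean was smaller than the SD between arrays. Over the 13 endothelial genes the median of that SD was 0.15, beside 0.13 over all tested genes.

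The 3 pericyte genes showed no common direction. Pdgfrb, the receptor through which endothelial cells recruit pericytes, had ratios of -0.036, -0.14, 0.077 and 0.10 and a mean of 0.0017 ± 0.11 (SD, n = 4). Rgs5, a regulator of G-protein signalling found in pericytes, had 0.082, 0.22, -0.054 and 0.092 and a mean of 0.084 ± 0.11 (SD, n = 4). Cspg4, the proteoglycan NG2, had -0.23, -0.28, 0.15 and 0.15 and a mean of -0.053 ± 0.24 (SD, n = 4). None was called, and the adjusted p was 1.000 for each in limma. Pdgfrb and Cspg4 are also made by other mesenchymal cells, and their ratios were below 0 on both female arrays and above 0 on both male arrays.

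Macrophage and other myeloid genes lay close to 0 as well. All 12 were tested, and 10 had a mean log2 ratio below 0 and 2 above, beside 48.2% of all genes below 0, with a median of -0.029 and a range from -0.10 to 0.064. The direction did not hold over arrays, where the median was 0.053, -0.046, -0.069 and 0.018 on arrays 1 to 4. In the dye-adjusted fit without array 3 it was 0.017, with 5 of 12 genes below 0. The mean of their log2 levels lay between 9.87 and 10.002 in the Sox2-Tbx2LOF pools and between 9.85 and 9.98 in the control pools.

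Tyrobp, an adaptor for activating receptors of myeloid cells, had the lowest myeloid mean and the smallest SD between arrays of the 34 genes. Its log2 levels were 10.30, 10.46, 10.53 and 10.58 in the Sox2-Tbx2LOF pools and 10.36, 10.61, 10.63 and 10.67 in the control pools, and the Sox2-Tbx2LOF pool was the lower on each array although the groups overlapped. The ratios were -0.061, -0.15, -0.10 and -0.089, with a mean of -0.10 ± 0.037 (SD, n = 4; adjusted p = 0.790 in limma). Its probe spans chr7:31200651-31202378 on the plus strand of mm9, more than its length, so that it crosses an exon junction. Fcer1g, an adaptor that serves Fc receptors in the same manner, had -0.042 ± 0.15 (SD, n = 4).

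Csf1r, the receptor on which macrophages depend, had log2 ratios of 0.18, -0.10, -0.23 and -0.0027 and a mean of -0.037 ± 0.17 (SD, n = 4), and both of its other probes gave -0.0011. Cx3cr1, the fractalkine receptor of tissue macrophages, had 0.034, -0.021, -0.39 and 0.24, with array 3 and array 4 on opposite sides of 0. Its mean was -0.034 ± 0.26 (SD, n = 4), and its other probes gave -0.0025 and 0.017. Mrc1, the mannose receptor, had -0.025 ± 0.16 (SD, n = 4). The surface phosphatase CD45, from Ptprc, had 0.016 ± 0.068 (SD, n = 4), and the lysosomal protein gene Cd68 had -0.0033, or 0.016 by its other probe. Aif1, which codes for the cytoskeletal macrophage protein IBA1, had the highest myeloid mean, 0.064 ± 0.045 (SD, n = 4). The complement genes C1qa, C1qb and C1qc, whose products form the C1q molecule together, had -0.0034, -0.019 and -0.052. Lyz2, the lysozyme of macrophages and granulocytes, had dim levels, from 6.60 to 6.77 in the Sox2-Tbx2LOF pools and 6.63 to 6.86 in the control pools, and a mean ratio of -0.093 ± 0.10 (SD, n = 4; adjusted p = 0.990 in limma). By the scanner software's own ratio its mean was -0.30 (adjusted p = 0.381), the one tested gene of the set whose value moved by more than its spread between arrays.

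**Figure D3:**
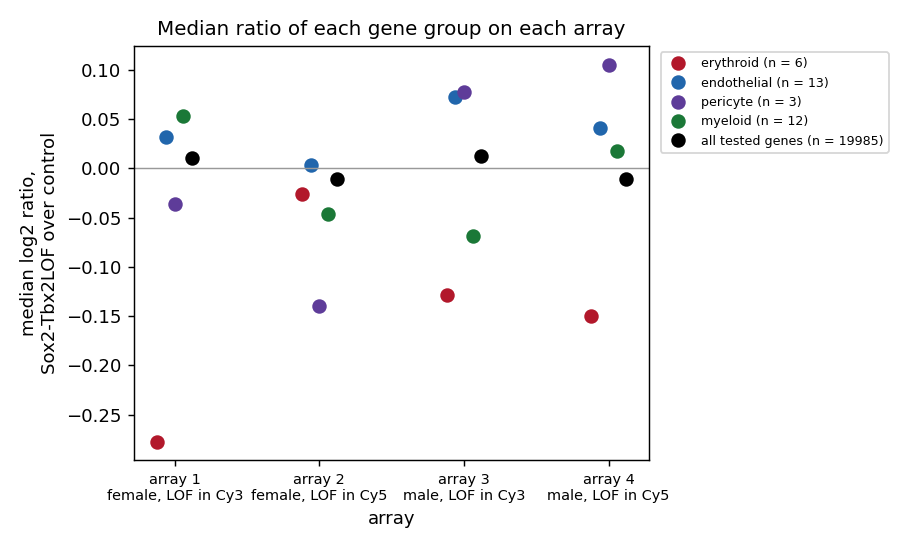
Median log2 ratio of Sox2-Tbx2LOF over control (y axis) of the red cell, endothelial, pericyte and myeloid genes and of all tested genes (colours, with the number of genes) on each array (x axis, with sex and dye). The red cell median lies below 0 on all 4 arrays, between -0.28 and -0.03, while the pericyte and myeloid medians change sign between arrays.

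Both the dye and the sex of the pools were read separately. The dye term was larger in size than the genotype term for 19 of the 34 genes, beside 68.2% of all tested genes. It was largest for Flt1 and Pecam1, followed by Hba-a1. Since each sex held both dye orientations, dye effects cancel in the means. For the difference of the genotype effect between sexes, limma gave no adjusted p under 0.05 for any tested probe, and 3 of the 34 genes had an unadjusted p under 0.05, beside 1.98% of all genes. These were Cspg4, with a female minus male difference of -0.41 (unadjusted p = 0.00592, adjusted p = 1.000 in limma), Eng with -0.30 (unadjusted p = 0.0277) and Hbb-bh1 with -0.30 (unadjusted p = 0.0438). The adjusted p of the others was 1.000 too. Within the female arrays the red cell median was -0.15 and within the male arrays -0.098, and the endothelial median was 0.035 and 0.056.

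**Figure D4:**
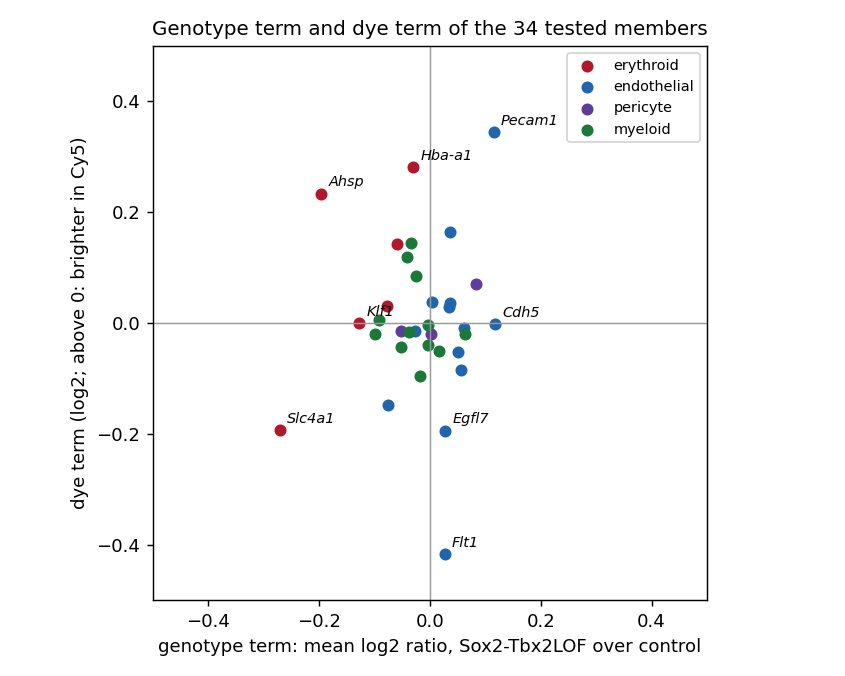
Genotype term (mean log2 ratio of Sox2-Tbx2LOF over control, x axis) and dye term (y axis, log2, above 0 where the Cy5 pool was brighter) of the 34 tested genes, coloured by cell type. Flt1, Pecam1 and Hba-a1 lie farthest from 0 on the dye axis and within 0.12 of 0 on the genotype axis, and Slc4a1 lies lowest on the genotype axis.

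Longer lists of the same cell types, chosen by name, were read in the same fit. Of 46 further globin, haem and red cell genes, 40 were tested, 21 with a mean below 0 and 19 above, with a median of -0.0023. The lower ratios of the 6 red cell genes were thus not seen in the median of this list, although many of its haem enzymes are made in all cells. The tested globin genes of this list, given above, had means below 0, none called. The list held 3 genes with an unadjusted p under 0.05 in limma, 2 higher and 1 lower, beside 7.89% of all genes. The lower one, Slc25a37, had -0.11 (adjusted p = 0.662 in limma) and was below 0 on all 4 arrays. The list held 1 called gene, Tal1, a transcription factor of blood and endothelial cells. Gata2, a transcription factor of early blood and endothelial cells, had 0.15 ± 0.094 (SD, n = 4; adjusted p = 0.368 in limma) and was above 0 on all 4 arrays.

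Tal1 rose in Sox2-Tbx2LOF. Its log2 levels were 11.37, 11.20, 11.19 and 11.45 in the Sox2-Tbx2LOF pools and 9.48, 9.65, 9.85 and 9.87 in the control pools, and these did not overlap. The ratios were 1.89, 1.56, 1.35 and 1.57, with a mean of 1.59 ± 0.23 (SD, n = 4), or 3.01-fold (adjusted p = 3.67e-05 in limma). It was thus the one gene of the blood and vessel lists past the threshold, while the red cell genes beside it, Klf1, Alas2 and Slc4a1, had mean ratios below 0 that did not pass. Tal1 is not made by blood and vessel cells alone. The study, from these same arrays, also lists Tal1 among its upregulated genes. Its in situ hybridization placed Tal1 in some Deiters' cells, the outer supporting cells, of both genotypes. Which cells gave the higher level was not tested here.

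Of 39 further endothelial genes, 38 were tested, 16 with a mean below 0 and 22 above, with a median of 0.018. Of these, 6 had an unadjusted p under 0.05 in limma, 4 higher and 2 lower, beside 7.89% of all genes. Tal1, which this list shares, was the only one called. On all 4 arrays, 3 genes were above 0 and 2 below. The 3 above were Tal1, Cldn5 and Angpt2, with 0.21 for Cldn5 (adjusted p = 0.145 in limma) and 0.21 for Angpt2 (adjusted p = 0.239 in limma). Mfsd2a, a lipid transporter of barrier endothelium, had ratios of -0.16, -0.36, -0.047 and -0.52 and a mean of -0.27 ± 0.21 (SD, n = 4; adjusted p = 0.0605 in limma), which passed the p threshold without array 2 (adjusted p = 0.0235). Mural cells, the pericytes and smooth muscle cells around vessels, were read from 17 further genes. Of the 15 tested, 11 had a mean above 0 and 4 below, with a median of 0.055. In limma 6 had an unadjusted p under 0.05, 5 higher and 1 lower, beside 7.89% of all genes. None had an adjusted p under 0.05, the lowest being 0.0643, and the highest mean was 0.27. The mean of their log2 levels lay between 11.33 and 11.37 in the Sox2-Tbx2LOF pools. In the control pools it lay between 11.27 and 11.31, and these ranges did not overlap. The share of lists of this size with such a gap was not counted. Gucy1a3, a subunit of the nitric oxide receptor of smooth muscle, had 0.16 ± 0.11 (SD, n = 4; adjusted p = 0.276 in limma), whereas Cox4i2, a respiratory chain subunit found in pericytes, had -0.15 ± 0.042 (SD, n = 4; adjusted p = 0.337 in limma).

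Of 34 further macrophage and microglia genes, 30 were tested, 15 with a mean below 0 and 15 above, with a median of 4.33e-04, 1 unadjusted p under 0.05 and none called. Siglech and Laptm5, a lectin of microglia and a lysosomal protein of blood cells, were above 0 on all 4 arrays, with means of 0.082 and 0.059. Among all tested genes, 4.56% were above 0 on all 4 arrays. By the mean of all its tested probes, Siglech had 0.027. Of 23 genes of granulocytes, mast cells, platelets and lymphocytes, 17 were tested, 12 with a mean below 0 and 5 above, with a median of -0.030 and none called. The platelet genes Ppbp and Gp9 were below 0 on all 4 arrays, with means of -0.26 ± 0.21 (adjusted p = 0.316 in limma) and -0.11 ± 0.11 (SD, n = 4 each; adjusted p = 0.642 in limma), and Gp9 was above background on 2 arrays in the Sox2-Tbx2LOF channel. With the scanner software's log ratio, Gp9 had -0.40 (adjusted p = 0.0363 in limma) and Ppbp -0.49 (adjusted p = 0.269 in limma). Without array 2 the dye-adjusted mean of Ppbp was -0.14 and did not pass. Without array 4 it was -0.37 (adjusted p = 0.00976 in limma), under the minimum fold.

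The ligands that act on these cells were read as well. Of 18 ligands of the vessel, macrophage and red cell receptors, 15 were tested, 11 with a mean below 0 and 4 above, with a median of -0.026, 2 with an unadjusted p under 0.05 and none called. Apln, the ligand of the apelin receptor of endothelial cells, had ratios of -0.17, -0.51, -0.0045 and -0.24 and a mean of -0.23 ± 0.21 (SD, n = 4; adjusted p = 0.184 in limma). Vegfc, a growth factor of lymphatic vessels, had -0.18 ± 0.14 (SD, n = 4; adjusted p = 0.289 in limma). Both were below 0 on all 4 arrays.

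**Figure D5:**
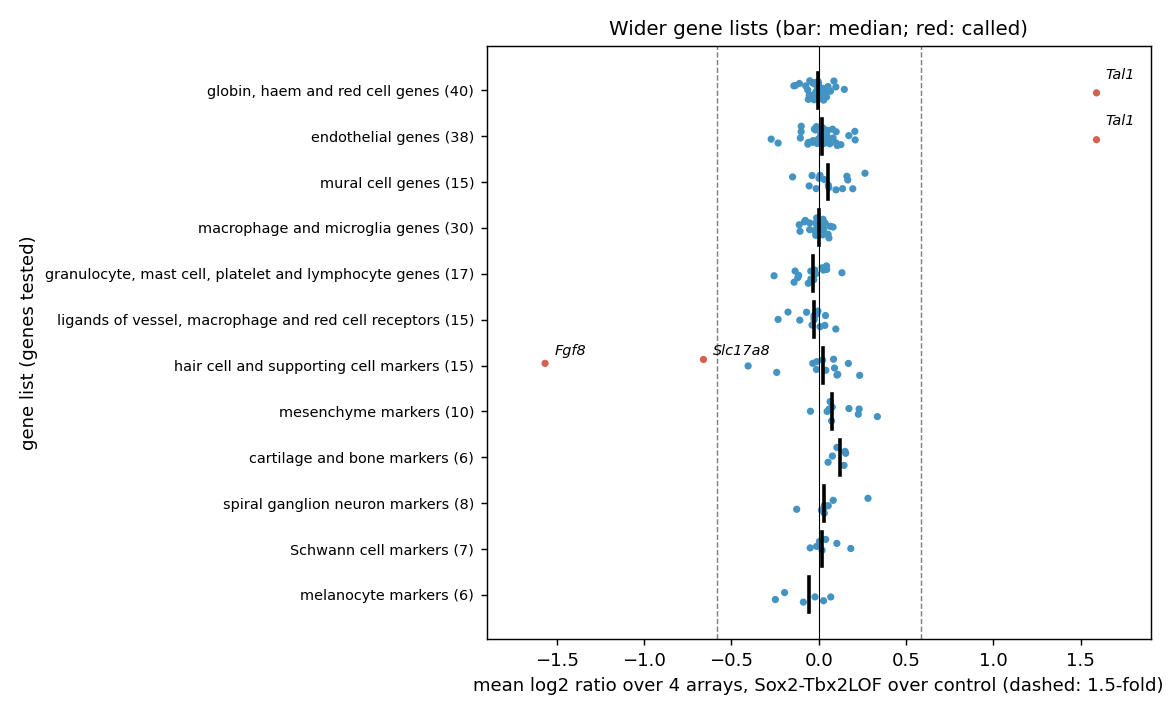
Mean log2 ratio of Sox2-Tbx2LOF over control (x axis, over 4 arrays) of each tested gene of the longer lists (y axis, with the number of genes), with the median of each list as a bar and called genes in red. Tal1, which stands in both the red cell and the endothelial list, lies at 1.59, and Fgf8 and Slc17a8 lie at -1.57 and -0.66, while the list medians lie between -0.054 and 0.12.

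Markers of the other cells of the dissected piece were set beside the blood and vessel genes. Of 15 tested hair cell and supporting cell genes, 2 were called, both lower. These were Fgf8, a growth factor made by inner hair cells, with -1.57 ± 0.073, and Slc17a8, the glutamate transporter of inner hair cells, with -0.66 ± 0.20 (SD, n = 4 each; adjusted p = 2.14e-06 and 2.86e-04 in limma). Otof, which inner hair cells need for release of transmitter, had an adjusted p of 0.00985 in limma but a mean of -0.40, under the minimum fold. Mesenchyme markers lay above 0 in 9 of 10 genes with a median of 0.076, and cartilage and bone markers in 6 of 6 with a median of 0.12, none called. Col1a1, a chain of type I collagen, had 0.34 ± 0.23 (adjusted p = 0.0608 in limma) and Dcn, the proteoglycan decorin, 0.23 ± 0.16 (SD, n = 4 each; adjusted p = 0.219 in limma). Sox9, a cartilage regulator, had 0.10. The mean log2 level of the 10 mesenchyme markers, all above background in the 8 pools, overlapped between the genotypes. It lay between 13.67 and 13.83 in the Sox2-Tbx2LOF pools and between 13.55 and 13.77 in the control pools. For cartilage and bone markers these ranges were 12.45 to 12.56 and 12.31 to 12.41, higher in Sox2-Tbx2LOF without overlap. For ganglion neuron markers they were 14.14 to 14.15 and 14.06 to 14.12, also higher without overlap. Hair cell and supporting cell markers had 11.48 to 11.59 and 11.60 to 11.75, lower without overlap. For Schwann cell and melanocyte markers the ranges overlapped. Ganglion neuron markers, Schwann cell markers and melanocyte markers had medians of 0.032, 0.019 and -0.054, and in these lists Isl1, a neuronal transcription factor, had 0.28 (adjusted p = 0.0321 in limma). The part of these differences in tissue makeup in the blood and vessel ratios was not tested.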

How the data were processed

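The deposited scanner files hold linear spot intensity values that the authors measured with Agilent Feature Extraction 10.7.3.1, the mean of each spot and the median of its local background per channel. The same deposited files hold a log10 ratio of processed signals, corrected for background and dye by the authors' software. The deposited series matrix holds another value, a signed fold change, made by the authors in steps not given in the sources used here. After conversion to log2 it correlated with the ratios computed here at 0.937 to 0.953 across tested probes, which settled its direction. Genome positions of probes were taken as the array files list them, on mm9. Symbols were matched to RefSeq GRCm38.p6 through accessions for 35 of the 36 genes.

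Background was corrected with normexp (offset 50) in limma 3.58.1 and R 4.3.3, and ratios were normalized by loess within each array of 174979 spots, of which 17263 are controls. Flagged spots, 3.23% to 3.56% per array, were left out, and none was saturated. The 4 spots of a probe were averaged. Channel levels were taken after quantile normalization of the mean brightness between arrays. Loess assumes that most genes do not change, and the offset pulls dim ratios towards 0. A probe was tested when more than 0.5 of its spots were well above background on at least 3 arrays in either genotype's channel. The fit (lmFit, eBayes) was against 0 with a dye term, and a call needed an adjusted p under 0.05 and a fold of at least 1.5. For an untested gene not well above background in 1 genotype, only the levels are given. The 4 arrays lay on 1 slide and were read in 1 scan, so that no such batch could be compared, and the number of arrays limits the precision. The methods of the study name an unpaired 2-class SAM comparison, which was not run because it rests on regrouping the samples. Unpaired limma took its place.

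Named genes were all members and Tbx2 and Sox2. From each longer list, genes with an adjusted p under 0.05 were named, and so were the 2 genes with the largest mean among those of the same sign on all 4 arrays. Slc25a37, Cldn5 and Angpt2 were named after their values were seen. Members and lists were chosen with earlier results of these data known. Alternatives changed background correction, normalization, filter, dye and sex terms, pairing, probe choice, call rule and the arrays included. The scripts were tested on simulated data.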

Additional observations from a re-analysis of the deposited data

Results flagged for a closer look

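On 4 arrays the highest ratio of Sox9 stood apart from the others. Its log2 ratio of 0.30 on array 4 was separated from the next by 0.856 of the whole range. Of 55 genes tested for such a gap, chance marks about 1 in 20.

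For 5 of the 34 blood, vessel and macrophage genes both female arrays lay on one side of 0 and both male arrays on the other. The share of all tested genes with this pattern was not counted, so that the 5 are not read as a trait of the set. The female minus male difference of the log2 ratio was 0.22 for Esam, -0.24 for Sox17, -0.18 for Pdgfrb, -0.41 for Cspg4 and -0.10 for Cd68. By the sex term in limma the unadjusted p was 0.101, 0.0660, 0.140, 0.00592 and 0.371 in that order, and the adjusted p was 1.000 for each.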

How the results depend on the processing

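None of the 34 tested genes was called under any of the 16 alternatives with a test, although without array 2 Slc4a1 and Ahsp had an adjusted p under 0.05 in limma at less than 1.5-fold, and the medians of the 4 cell types moved by less than the spread between arrays. The red cell median lay between -0.15 and -0.067, the endothelial between 0.021 and 0.056, the pericyte between -0.088 and 0.091 and the myeloid between -0.055 and 0.017. Of the 34 genes, 14 kept the sign of their mean throughout and 20 did not. Over all probes, 70 were called, against 124 with the scanner software's log ratio, 1 with the series matrix and 277 with no minimum fold. Leaving out each array in turn gave 68 to 106, the latter without array 1. In the longer lists, Ppbp, Apln and Dcn without array 4 and Mfsd2a and Col1a1 without array 2 had an adjusted p under 0.05 in limma, likewise at less than 1.5-fold. The ratios pair the genotypes on each array, and unpaired limma on the channel levels gave 57. With the series matrix Tal1 (1.69, adjusted p = 0.228), Fgf8 (-1.70, adjusted p = 0.0585) and Slc17a8 (-0.85, adjusted p = 0.148) no longer passed in limma, and with the mean of all probes Slc17a8 was -0.39. The cause of these differences was not tested. Signal over background limits Gata1, Epb4.2, Erg and Lyz2.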
